A study of Mus musculus with 473 samples.

Results

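Th:EGFP cells of the mouse forebrain (FB, in the labels the hypothalamus) were compared with Th:EGFP cells of the olfactory bulb (OB), both at postnatal day 7 (P7), over all 3 library plates that hold them. The members are the 81 FB cells and 68 OB cells that passed the quality control of the submitters, 149 of the 473 cells of the series, out of 95 sorted cells per region. The rest of the series holds midbrain cells of the same age and embryonic cells, and the labels give candidate genes for Parkinson disease as its purpose. All pups carried 1 transgene, a bacterial artificial chromosome with enhanced green fluorescent protein (eGFP) under control of the gene for tyrosine hydroxylase (Th). The line was kept hemizygous on the outbred Swiss Webster background, and the labels name no other allele or treatment. For each region, tissue of 5 eGFP-positive pups was pooled, dissociated with papain and passed through a density gradient. Single cells that fluoresced and excluded propidium iodide were sorted and read with Smart-Seq2, which covers whole polyadenylated transcripts, with the same numbers of amplification cycles in both regions.

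A region is thus 1 pool of animals, and its cells were sorted into 1 plate of its own before they were shared out over the library plates. Cells of 1 pool are not replicates of a region, and pool and sort plate cannot be told apart from region. With 1 pool per region there is no test and thus neither a p-value nor a standard error. Each ± is the SD over cells, and a gene is called higher in a region at a fold of 2 or more with the same direction on each of the 3 plates. Cells were sorted on fluorescence of the reporter in both regions, so cells that did not fluoresce are not represented.

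Neurons of the hypothalamus that contain tyrosine hydroxylase include neuroendocrine cells of the arcuate nucleus, which release dopamine or hypothalamic releasing hormones toward the pituitary. In rodents, arcuate neurons that make growth hormone releasing hormone are known to contain galanin, and some contain tyrosine hydroxylase. Dopaminergic cells of the olfactory bulb are GABAergic interneurons of the glomerular layer that go on being added after birth from neuroblasts of the subventricular zone, and Pax6, Sall3, Etv1 and Meis2 are transcription factors of that lineage.

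On 2 of the 3 plates the labels and the deposited columns of the same name did not match. The number of genes in each label, set against the genes at 1 FPKM or more in the column of that name, gave correlations of -0.0338 and -0.0519 across the cells of these plates. After the columns of the 2 plates were exchanged well by well the correlations were 0.999 and 0.999, as on the third plate (0.999), and the exchanged columns are used throughout. By definition, FPKM values divide the fragments of a transcript by its length and by the size of the library. How each cell was scaled for the deposited values is not given. By the labels, FB cells had a median of 4916 genes (2169 to 7487) and OB cells 3290 (2146 to 6078), a ratio of 1.49. The depth of each cell relative to the median cell was read from steps in the low FPKM values. This estimate placed 84.01% of 11026 cell pairs within 0.03 on the log2 scale of 1 set of offsets. It gave medians of 1.06 in FB and 0.920 in OB, a ratio of 1.15, and on plate TH02_18.20.16 the order was the other way (1.06 in FB and 1.09 in OB). The reading of the steps is in doubt for cells below 0.4. These are 11 FB cells, 9 of them on plate TH02_16.18.20, and 4 OB cells, all on plate TH02_20.16.18. In OB this cut is not a gap, as the next cell follows at 0.426. Without the cells below 0.4 the medians were 1.10 in FB and 0.926 in OB, a ratio of 1.19. Fewer genes were thus found in OB cells on each plate. Because of this difference, the calls and many of the folds are also given in 25 FB and 25 OB cells paired on the same plate with gene numbers within 200, with a median of 3991 genes per FB cell and 4056 per OB cell. These pairs hold 12 of the 15 cells of cluster P7.OB.3 and 10 of the 26 cells of cluster P7.FB.1, so pairing also changes the mix of clusters. Pairs also hold equal numbers of FB and OB cells on each plate, unlike all cells. Where a value differs between all cells and pairs, the parts of gene number, clusters and plates were not told apart.

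**Figure D1:**
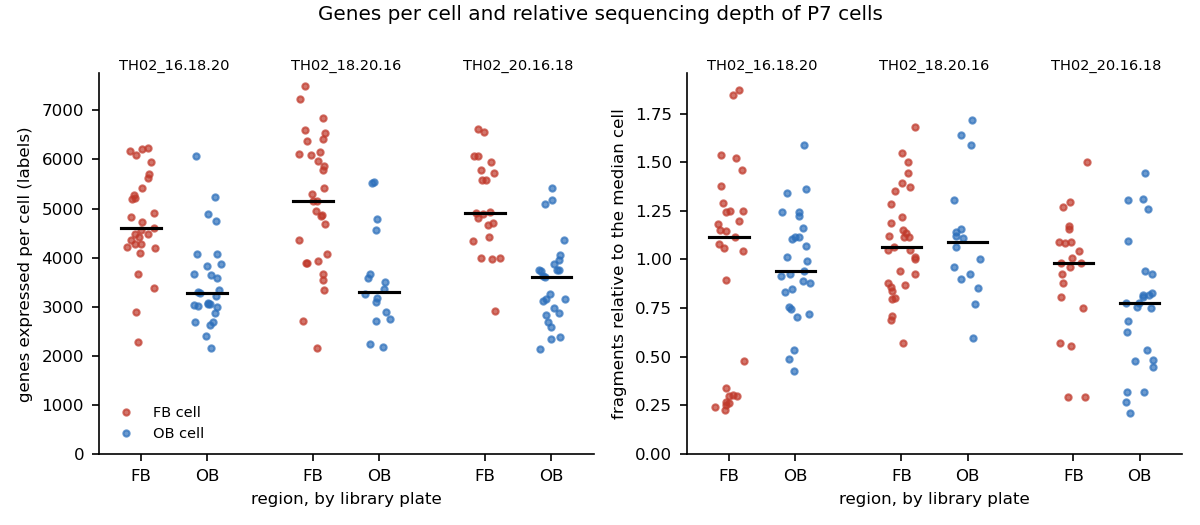
Genes per cell in the labels (left, number) and fragments relative to the median cell (right, ratio) for each P7 cell, by region and library plate; points are cells and bars medians. The FB median of genes per cell lay above the OB median on each plate (4608 against 3280, 5164 against 3310 and 4917 against 3598).

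Of 12174 genes with a mean of at least 1 FPKM in either region, 2076 (17.1%) were called higher in FB and 814 (6.69%) higher in OB. In the paired cells 1306 (10.7%) of all genes kept the first call at 2-fold or more and 696 (5.72%) kept the second. The median log2 fold of all compared genes, FB over OB, was 0.30, against 0.028 after every cell was rescaled to 1 total and 0 over the same genes in the paired cells. On plates TH02_16.18.20, TH02_18.20.16 and TH02_20.16.18 it was -0.047, 0.20 and 0.31 over these genes. These plates held 29, 31 and 21 FB cells and 27, 16 and 25 OB cells. Means over all cells thus weigh plate TH02_18.20.16, which had the highest FPKM totals, more in FB than in OB. With rescaling, 1389 genes were called higher in FB and 980 in OB, which lowers the FB share of calls to 58.6% from 71.8%. Weighting the plates equally gave 1762 and 1029 genes (63.1%), and calling anew within the pairs 1266 and 1482 (46.1%). List medians below are therefore read beside 0.30 in all cells and beside 0 in the pairs, and the share of a list that was called beside the 17.1% and 6.69% of all genes.

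Th itself and the metallothionein genes are shown by the bases before their starts, because Th regulatory sequence drives the sorted reporter and Mt1 and Mt2 are neighbours that moved together. The lines give 250 bases upstream of the RefSeq start, 5′ to 3′ on the gene's strand (build GRCm38.p6). The bases of Th lie inside the Th interval given below, which comes from GENCODE and starts farther upstream. Capitals mark the cyclic AMP response element TGACGTCA in Th (chr7:142899996-142900245, minus strand). In Mt1 (chr8:94178839-94179088, plus strand) and Mt2 (chr8:94172368-94172617, plus strand) they mark matches to the metal response core, TGCACNC or TGCGCNC on either strand.
Th: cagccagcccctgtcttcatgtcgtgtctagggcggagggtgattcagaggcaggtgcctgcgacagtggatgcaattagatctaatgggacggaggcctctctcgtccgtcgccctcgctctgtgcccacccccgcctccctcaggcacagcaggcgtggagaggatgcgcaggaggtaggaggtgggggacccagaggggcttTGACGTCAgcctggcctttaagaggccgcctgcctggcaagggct
Mt1: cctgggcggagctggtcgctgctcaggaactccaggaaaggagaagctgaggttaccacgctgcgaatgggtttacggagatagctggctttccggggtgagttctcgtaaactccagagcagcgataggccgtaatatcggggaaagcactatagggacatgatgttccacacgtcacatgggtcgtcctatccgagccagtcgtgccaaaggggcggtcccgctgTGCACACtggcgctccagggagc
Mt2: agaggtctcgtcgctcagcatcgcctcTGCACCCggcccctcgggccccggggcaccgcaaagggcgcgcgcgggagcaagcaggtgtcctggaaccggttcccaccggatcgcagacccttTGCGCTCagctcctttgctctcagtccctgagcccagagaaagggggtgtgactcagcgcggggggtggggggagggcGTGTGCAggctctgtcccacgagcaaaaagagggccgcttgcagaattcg
Over the 300-base windows that include 50 bases after the start, Mt1 held 3 and Mt2 4 matches to the metal response core, and Th held 1 cyclic AMP response element. Of 32851 RefSeq promoters of that length, 25.7% hold the metal response core, 1.97% hold it at least 3 times and 1.79% hold the cyclic AMP response element. A match describes letters and not binding.

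Th (minus strand of chromosome 7, 142892752 to 142931128 in mm10; ENSMUSG00000000214.10), the rate-limiting enzyme of dopamine synthesis, was found at 1 FPKM or more in 95.1% of FB cells (exact 95% interval 87.8 to 98.6%) and 98.5% of OB cells (92.1 to 100%). It ran from 0 through a median of 163 to 4568 FPKM in FB cells, and from 0.420 through 909 to 4312 FPKM in OB cells. The ranges overlap, and the mean was 415 ± 767 FPKM in FB and 980.0 ± 958 FPKM in OB, a log2 fold of -1.24 (-1.92 in the paired cells). The mean was lower in FB on each plate (197 against 923, 781 against 1725 and 175 against 564 FPKM). The eGFP transcript had no such stable order. It was found in 67.9% of FB cells and 57.4% of OB cells, although all were sorted on fluorescence. It averaged 143 ± 393 FPKM in FB and 61.7 ± 140 FPKM in OB (log2 fold 1.20), but 40.2 FPKM in FB against 59.9 FPKM in OB on plate TH02_20.16.18. In FB 1 cell held 24.5% of the eGFP total and in OB 1 cell held 24.1%.

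Among genes that act beside Th in dopamine handling, none of 13 was called higher in FB once cells were paired. In all cells Ddc, Pcbd1 and Maoa were called higher in FB and Th alone higher in OB, with a list median of 0.95 (0.23 in pairs). This median was 0.33 without plate TH02_18.20.16, 0.21 on that plate alone and 0.60 with the plates weighted equally, so it has no stable size. Ddc, which converts L-DOPA to dopamine, averaged 101 ± 211 FPKM in FB and 28.2 ± 57.2 FPKM in OB (log2 fold 1.81; 0.54 in pairs), and was found in 55.6% of FB and 45.6% of OB cells. Pcbd1, which recycles the Th cofactor, had a log2 fold of 1.78 (0.50 in pairs) and Maoa, a monoamine-degrading enzyme, 1.25 (0.87 in pairs). Slc6a3, the plasma membrane dopamine transporter, was not called, with 47.4 ± 390.1 FPKM in FB and 66.1 ± 131 FPKM in OB. It was found in 21.0% of FB cells (12.7 to 31.5%) and 58.8% of OB cells (46.2 to 70.6%). In FB 1 cell held 91.5% of the total. The log2 fold was -0.47 in all cells and -3.72 without that cell, which was the only FB cell with both Slc6a3 and En1, a midbrain transcription factor.

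The largest difference was that of Ghrh (ENSMUSG00000027643.9; chromosome 2, 157329497 to 157347506, minus strand), which encodes growth hormone releasing hormone. It ran from 0 through a median of 1.39 to 12523 FPKM in FB cells, and from 0 through 0 to 6.79 FPKM in OB cells. FB cells spread over the whole range, and no OB cell came near the upper part of it. Mean Ghrh was 1545 ± 2917 FPKM in FB and 0.367 ± 1.17 FPKM in OB, a log2 fold of 10.14 (10.43 in pairs). The plate means were 816, 2447 and 1220.4 FPKM in FB. In OB the mean was 0.924 FPKM on plate TH02_16.18.20, which held all 7 OB cells with Ghrh, and the gene was listed at 0 on the other plates. Of the 32 FB cells at 100 FPKM or more, 25 belong to cluster P7.FB.1, which has 26 cells, and 7 to P7.FB.2, which has 55.

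Most cells with high Ghrh also held other genes of FB cells. Th was found in 32 of these 32 cells and in 45 of the other 49 FB cells, and Gad1 in 29 of 32 and 45 of 49, so neither set the high cells apart. The galanin precursor Gal was found in 29 of 32 and 27 of 49, and Isl1 in 28 of 32 and 29 of 49. Gsx1, a homeodomain factor, was found in 25 of 32 and 6 of 49. Esr1, the oestrogen receptor alpha, was found in 26 of 32 and 2 of 49. Slc18a3, the vesicular acetylcholine transporter, was found in 18 of 32 and 2 of 49. These splits follow a level of Ghrh chosen after its values were seen, and they describe the cells with no test.

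**Figure D2:**
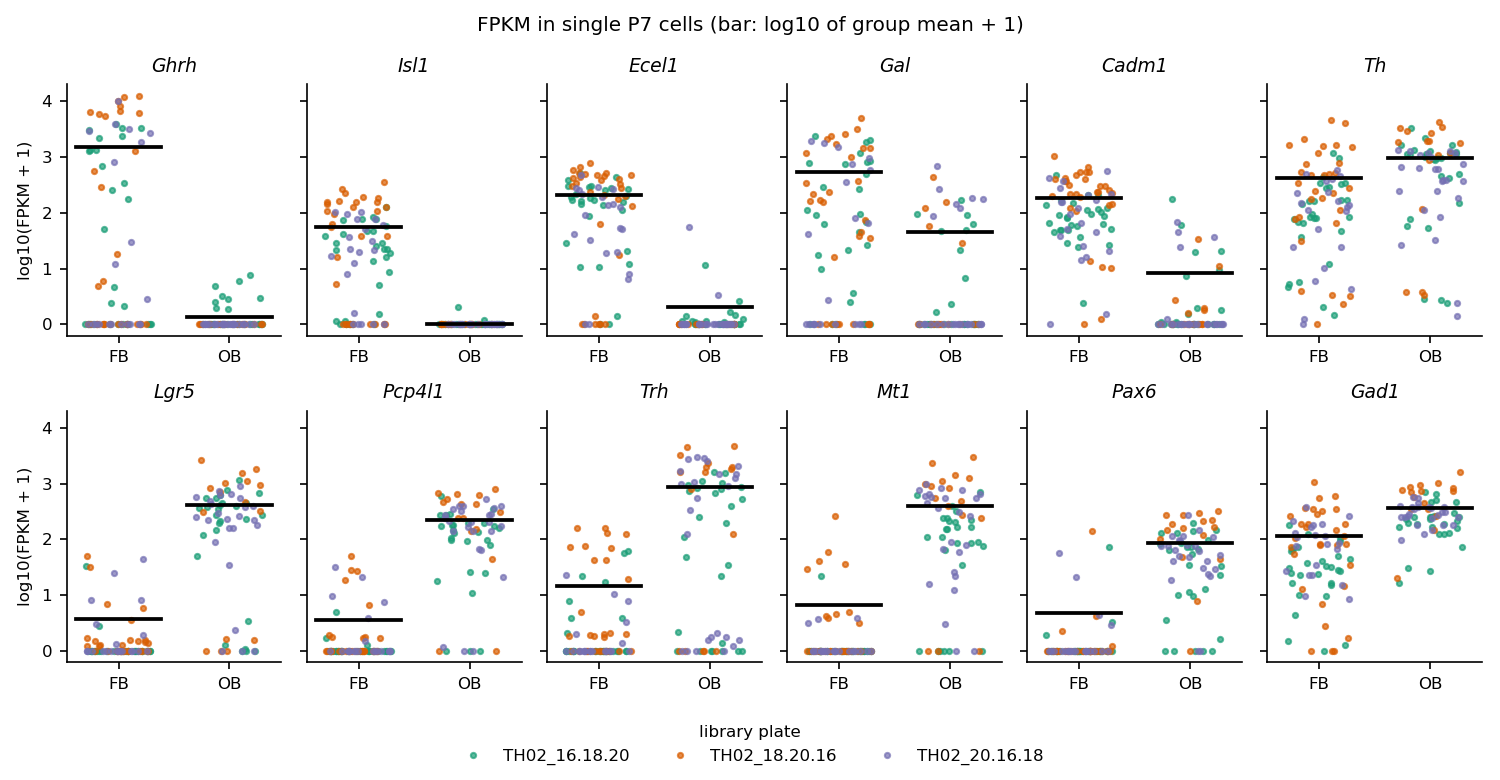
FPKM of 12 genes in each P7 cell on a log10(FPKM + 1) axis, FB left and OB right; points are cells coloured by library plate and bars are the log10 of the group mean plus 1. Ghrh and Gal split the FB cells, Isl1 was found in 1 of 68 OB cells, and Lgr5, Pcp4l1, Trh, Mt1 and Pax6 lay near 0 in most FB cells.

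Of 28 neuropeptide precursors, 19 reached 1 FPKM. Of these, 9 were called higher in FB and 3 higher in OB (6 and 3 in pairs), with a list median of 1.47 (0.79 in pairs). Gal, a precursor of an inhibitory peptide, averaged 548 ± 921 FPKM in FB and 44.2 ± 110.1 FPKM in OB (log2 fold 3.60; 3.61 in pairs), and its mean was 1381 FPKM in P7.FB.1 and 154 FPKM in P7.FB.2. The tachykinin precursor Tac1 lay in the other FB cluster, with 10.9 FPKM in P7.FB.1 and 155 FPKM in P7.FB.2, and its means were 109 ± 398 FPKM in FB and 3.39 ± 14.2 FPKM in OB (log2 fold 4.65). Cartpt, the precursor of a feeding-related peptide, and Pdyn, the dynorphin precursor, averaged 17.4 and 7.49 FPKM in FB and were listed at 0 in every OB cell. Adcyap1, the PACAP precursor, had a log2 fold of 3.89, with 68.7% of its FB total in 1 cell and 2.43 without the highest cell of each region.

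Sst, the somatostatin precursor, averaged 402 ± 2292 FPKM in FB and 60.8 ± 413 FPKM in OB (log2 fold 2.70). Its direction does not hold in the paired cells, where the log2 fold was -3.40. In FB 1 cell held 59.3% of the Sst total and in OB 1 cell held 82.2%, and the OB values lay nearly all in cluster P7.OB.1 (207 FPKM). The precursors called higher in OB were Trh, Crh and Penk. Penk, the enkephalin precursor, averaged 25.9 ± 82.8 FPKM in FB and 70.1 ± 167 FPKM in OB (log2 fold -1.40). Crh, the precursor of corticotropin releasing hormone, averaged 0.278 ± 1.34 FPKM in FB and 25.1 ± 100.4 FPKM in OB, and in OB it averaged 85.2 FPKM in P7.OB.1 and was listed at 0 in the other clusters.

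Trh (ENSMUSG00000005892.4; chromosome 6, 92242061 to 92244650, minus strand), the precursor of thyrotropin releasing hormone, was the peptide gene with the largest difference toward OB. It ran from 0 through a median of 0 to 159 FPKM in FB cells, and from 0 through 460.3 to 4665 FPKM in OB cells. The mean was 13.7 ± 34.5 FPKM in FB and 872 ± 1108 FPKM in OB, a log2 fold of -5.89 (-7.26 in pairs). Most OB cells lie above the highest FB cell, but OB cells with values near 0 overlap the FB cells. The mean in P7.OB.1 was 18.4 FPKM, close to the 23.3 FPKM of P7.FB.1, against 979 FPKM in P7.OB.2 and 1773 FPKM in P7.OB.3.

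Receptors for hormones and peptides were more often called higher in FB. Of 28 compared, 16 were called higher in FB and 3 higher in OB (12 and 2 in pairs), with a median of 1.57 (1.28 in pairs). Calcr, the calcitonin receptor, averaged 44.5 ± 80.6 FPKM in FB and 0.00297 ± 0.0175 FPKM in OB (log2 fold 5.50), and was found in 35.8% of FB cells and in no OB cell (at most 5.28%, exact 95% interval). Esr1 averaged 19.0 ± 40.2 FPKM in FB and 0.0358 ± 0.250 FPKM in OB (log2 fold 4.27), with 56.9 FPKM in P7.FB.1 and 1.02 FPKM in P7.FB.2. Npy1r, a neuropeptide Y receptor, and Ghr, the growth hormone receptor, lay in the same cluster, at 26.6 and 45.995 FPKM in P7.FB.1 and 0.871 and 1.97 FPKM in P7.FB.2. Npy2r lay in both, at 5.18 and 10.9 FPKM. Log2 folds over all cells were 2.64 for Npy1r, 3.33 for Npy2r and 2.36 for Ghr, and that of Ghr was -0.17 without P7.FB.1. The nociceptin receptor Oprl1 (2.54) and the tachykinin receptor Tacr1 (3.01) were also higher in FB. Crhr1, the receptor for corticotropin releasing hormone, was lower in FB at 2.00 ± 8.89 FPKM, against 21.8 ± 47.2 FPKM in OB (log2 fold -2.93), as was the VIP receptor Vipr2 (-2.20).

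Several transcription factors were found mostly in cells of 1 region. Isl1 (ENSMUSG00000042258.13; chromosome 13, 116298281 to 116309689, minus strand), a LIM-homeodomain factor of several neuron types, ran from 0 through a median of 24.1 to 353 FPKM in FB cells, and from 0 through 0 to 1.05 FPKM in OB cells. It was found in 70.4% of FB cells (59.2 to 80.01%) and in 1.47% of OB cells (0.0372 to 7.92%). The OB cells lie at or near 0, where they overlap the FB cells in which Isl1 was not found. The log2 fold was 5.75 (5.22 in pairs), with means of 29.9, 89.1 and 34.5 FPKM on the 3 plates in FB and at most 0.0456 FPKM in OB. Isl1 was present in both FB clusters, at 43.99 FPKM in P7.FB.1 and 58.4 FPKM in P7.FB.2.

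Of 26 hypothalamic transcription factors, 12 reached 1 FPKM, and 8 of these were called higher in FB and none higher in OB (5 and 0 in pairs). Their median was 1.88 in all cells and 3.07 in pairs. Gsx1 averaged 19.5 ± 33.7 FPKM in FB, with 51.02 FPKM in P7.FB.1 and 4.57 FPKM in P7.FB.2, and was listed at 0 in every OB cell. Prox1, a homeobox factor of several progenitor and neuron types, averaged 14.4 ± 36.8 FPKM in FB and 1.55 ± 7.77 FPKM in OB (log2 fold 2.59). Six6, an eye and hypothalamus factor, averaged 7.74 ± 25.5 FPKM in FB and 0.00144 ± 0.0119 FPKM in OB (3.13). The other 14 factors, among them Sim1, Rax, Nr5a1, Bsx and Foxb1, stayed under 1 FPKM in both regions, and Nkx2-1, at a log2 fold of 0.22, changed direction between plates.

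Of 20 factors of olfactory bulb interneurons, 16 were compared, and 1, Nr2f2, was called higher in FB and 8 higher in OB (0 and 7 in pairs), with a median of -1.04 (-1.47 in pairs). Pax6 (ENSMUSG00000027168.21; chromosome 2, 105668900 to 105697364, plus strand), a paired-homeodomain factor, ran from 0 through 0 to 141 FPKM in FB cells, and from 0 through 64.2 to 323 FPKM in OB cells. It was found in 11.1% of FB and 86.8% of OB cells, and its log2 fold was -4.17 (-4.82 in pairs). Sall3, a zinc finger factor, was found in no FB cell and in 82.4% of OB cells, with 0.0234 ± 0.0807 FPKM in FB and 18.9 ± 21.5 FPKM in OB (log2 fold -4.28). Etv1, an ETS factor, averaged 15.4 ± 48.8 FPKM in FB and 128 ± 110 FPKM in OB (-2.97), and was highest in P7.OB.3 at 230.2 FPKM. Sp8 (-2.63), Meis2 (-1.76) and Sall1 (-3.69) followed the same direction. Dlx1, a factor of forebrain GABAergic neurons, was found in 85.2% of FB and 98.5% of OB cells, and its log2 fold was -1.17 (-0.83 in pairs).

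Some cells held few leading genes of their own region. Counting cells with at least 3 of Isl1, Ghrh, Asb4, Arhgap36, Ucp2 and Ecel1 gave 62 of 81 FB cells and 0 of 68 OB cells. Counting cells with at least 3 of Lgr5, Pcp4l1, Trh, Pax6, Sall3 and Eya2 gave 5 of 81 FB cells and 57 of 68 OB cells. These genes were chosen because they differed between the regions, so the counts restate that choice and check neither the labels nor the cells.

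Ecel1 (ENSMUSG00000026247.13; chromosome 1, 87147655 to 87156521, minus strand), a neuronal membrane endopeptidase, was found in more FB cells than the other named genes with a log2 fold above 6. It ran from 0 through a median of 176 to 782 FPKM in FB cells, and from 0 through 0 to 55.1 FPKM in OB cells, and was found in 85.2% of FB cells (75.6 to 92.1%) and 5.88% of OB cells (1.63 to 14.4%). The mean was 206 ± 188 FPKM in FB and 1.06 ± 6.78 FPKM in OB, of which 1 OB cell held 76.2%, and the log2 fold was 6.65 (6.70 in pairs). Most FB cells lie above every OB cell. Ucp2, a mitochondrial carrier, had a log2 fold of 6.68, with 105 ± 212 FPKM in FB and 0.0377 ± 0.175 FPKM in OB. Arhgap36 (log2 fold 6.56), named for a GAP domain and known as an activator of Hedgehog signalling, and Asb4 (6.26), an ankyrin repeat protein with a SOCS box, were found in 70.4% and 56.8% of FB cells and each in 1 OB cell. All these genes were higher in P7.FB.1 than in P7.FB.2. The ratio was widest for Arhgap36, at 277 against 18.7 FPKM.

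Other genes named for FB were higher in P7.FB.2. Hpcal1, a neuronal calcium sensor, averaged 12.8 FPKM in P7.FB.1 and 75.3 FPKM in P7.FB.2, against 0.648 ± 4.64 FPKM in OB (log2 fold 5.09 over all FB cells). Sdc3, a neuronal heparan sulphate proteoglycan, was found in 93.8% of FB and 5.88% of OB cells (log2 fold 4.57). Cadm1 (ENSMUSG00000032076.18; chromosome 9, 47530173 to 47857637, plus strand), a synaptic adhesion molecule, was found in 95.1% of FB cells (87.8 to 98.6%) and 19.1% of OB cells (10.6 to 30.5%), with 183 ± 188 FPKM in FB and 7.52 ± 24.9 FPKM in OB (log2 fold 4.43; 4.55 in pairs). The tetraspanin Tspan17 (4.95), the carbonic anhydrase related protein Car10 (4.79) and Aldoc, a glycolytic aldolase also used as an astrocyte marker (4.57), complete this set. Far2, a fatty acyl-CoA reductase (4.80), and Rftn1, a lipid raft protein (4.40), were higher in P7.FB.1.

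**Figure D3:**
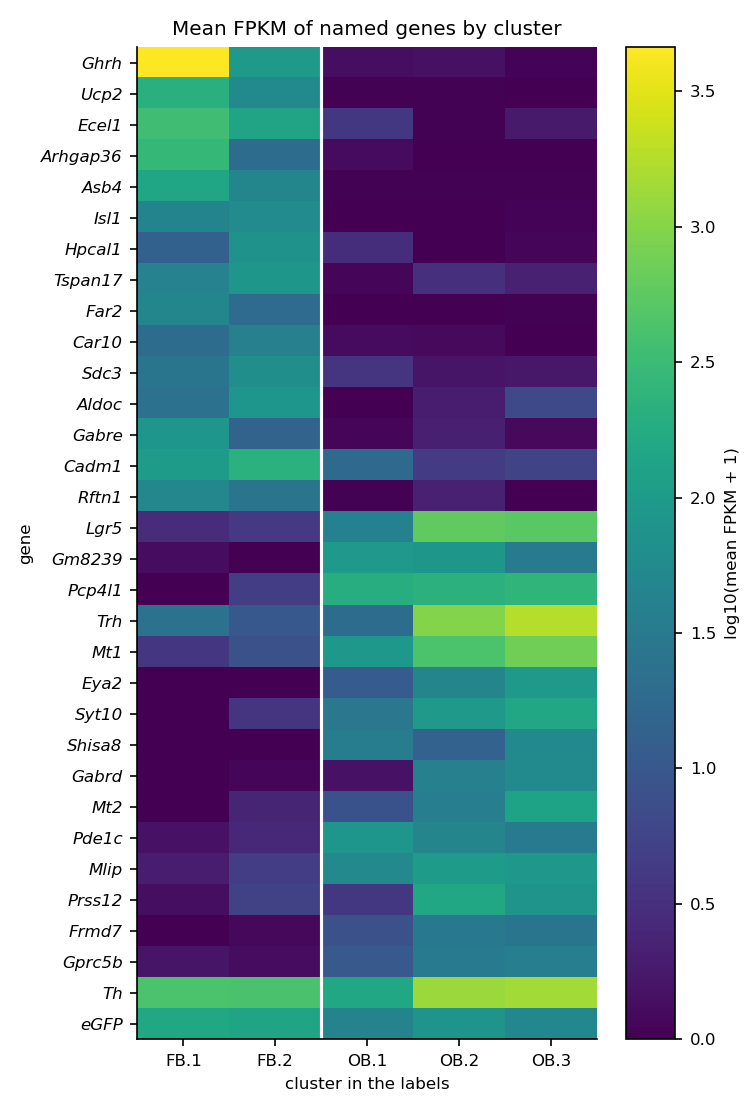
Mean FPKM of the 32 genes named by rule, as log10(mean + 1), in the clusters that the labels give (FB.1 26 cells, FB.2 55, OB.1 20, OB.2 33, OB.3 15). Of the genes named for FB, Cadm1 reached 16.6 FPKM in OB.1 and Aldoc 5.44 FPKM in OB.3. Most genes named for OB, Lgr5, Trh, Gabrd and Prss12 among them, have a lower mean in OB.1 than in OB.2 and OB.3. Gm8239, Shisa8 and Pde1c do not.

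Among genes higher in OB, Lgr5 (ENSMUSG00000020140.15; chromosome 10, 115450311 to 115587780, minus strand), a receptor for R-spondins that is best known from intestinal stem cells, had the largest difference. It ran from 0 through 0 to 48.6 FPKM in FB cells, and from 0 through 299 to 2645 FPKM in OB cells. It was found in 14.8% of FB cells (7.90 to 24.4%) and 80.9% of OB cells (69.5 to 89.4%). The mean was 2.65 ± 8.88 FPKM in FB and 412 ± 466 FPKM in OB, a log2 fold of -6.82 (-7.38 in pairs), and all plates had that direction. Lgr5 was found in every cell of P7.OB.2 and P7.OB.3, whose means were 581 and 539 FPKM, and averaged 39.4 FPKM in P7.OB.1. Pcp4l1, a small protein related to Pcp4, was found in 13.6% of FB and 88.2% of OB cells (2.501 ± 7.96 FPKM in FB and 221 ± 188 FPKM in OB, log2 fold -5.99). Pcp4l1 was found in 60% of P7.OB.1 cells and in every cell of P7.OB.2 and P7.OB.3, with means of 189, 228 and 248 FPKM.

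Eya2, a transcriptional cofactor and phosphatase, was listed at 0 in all FB cells and found in 51.5% of OB cells at a mean of 45.9 ± 73.4 FPKM. Shisa8, of a family that modulates AMPA receptors, was found in no FB cell and in 58.8% of OB cells at 28.98 ± 44.4 FPKM. Syt10, a synaptotagmin (log2 fold -4.96), Mlip, named for its interaction with lamin A (-4.52), Prss12, the protease neurotrypsin (-4.51), the FERM domain protein Frmd7 (-4.31) and the orphan receptor Gprc5b (-4.20) were lower in FB on each plate. Pde1c, a calcium and calmodulin dependent phosphodiesterase, averaged 1.24 ± 5.08 FPKM in FB and 53.4 ± 90.9 FPKM in OB (-4.60). Gm8239, annotated as a long non-coding RNA, lies upstream of Pde1c on the same minus strand (chromosome 6, 56581203 to 56652487, with Pde1c at 56069804 to 56569103) and averaged 0.0983 ± 0.666 FPKM in FB and 76.3 ± 153 FPKM in OB (-6.14). Whether the counting told reads of these neighbours apart is not known.

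The metallothioneins Mt1 and Mt2, small proteins that bind zinc and copper, lie within 10 kilobases of each other on chromosome 8 (Mt2 at 94172664 to 94173568, Mt1 at 94179082 to 94180327, plus strand), and their upstream bases are printed above. Mt1 (ENSMUSG00000031765.7) ran from 0 through 0 to 259 FPKM in FB cells, and from 0 through 216 to 2956 FPKM in OB cells. It was found in 17.3% of FB cells (9.78 to 27.3%) and 83.8% of OB cells (72.9 to 91.6%), with means of 5.72 ± 29.98 FPKM in FB and 395 ± 529 FPKM in OB (log2 fold -5.88; -5.56 in pairs). In FB 1 cell held 55.9% of the Mt1 total. The FB mean was 0.710, 14.0 and 0.369 FPKM on the 3 plates, against 164, 858 and 348 FPKM in OB. Mt2 averaged 0.968 ± 6.61 FPKM in FB and 49.2 ± 83.003 FPKM in OB (-4.67), and both genes were highest in P7.OB.3. Mt3, the metallothionein mainly of brain, was found in 87.7% of FB and 88.2% of OB cells and was not called (log2 fold -0.28). Of 17 compared genes of metallothioneins and oxidative stress, 3 were called higher in FB (Sod1, Prdx1 and Ucp2) and 3 higher in OB (Mt1, Mt2 and the zinc exporter Slc30a1). In pairs 1 and 3 of these calls held, and the share called higher in FB was near that of all genes.

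GABAergic genes were lower in FB, although most cells of both regions had them. Of 6 compared, 0 were called higher in FB and 4 higher in OB, also in pairs, with a median of -1.11 (-1.89 in pairs). Gad1, which makes GABA, ran from 0 through a median of 66.9 to 1044 FPKM in FB cells, and from 15.5 through 262 to 1639 FPKM in OB cells. It was found in 91.4% of FB cells and all OB cells, and 72 of 81 FB cells and 67 of 68 OB cells had it together with Th. The mean was 114 ± 161 FPKM in FB and 361 ± 281 FPKM in OB (log2 fold -1.66; -2.38 in pairs). Abat, which breaks GABA down, averaged 42.5 ± 47.4 FPKM in FB and 99.3 ± 87.5 FPKM in OB (-1.21). Gad2 had a log2 fold of -1.02 (-1.92 in pairs). The vesicular transporter Slc32a1 was lower in FB on each plate but was not called (-0.69). All 3 compared genes of glutamate and acetylcholine transmission were called higher in FB, but in few cells. The vesicular glutamate transporter Slc17a6 was found in 6 FB cells and the acetylcholine enzyme Chat in 5, and neither was found in an OB cell, while Slc18a3 was found in 24.7% of FB cells (log2 fold 3.74).

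The receptors for GABA and glutamate differed subunit by subunit. Of 14 GABA-A subunits, 6 were called higher in FB and 2 higher in OB (4 and 2 in pairs; median 0.55, 0.31 in pairs). Gabre (epsilon) and Gabrq (theta), which lie close together on chromosome X, were higher in FB, with 36.2 ± 49.4 FPKM in FB and 0.622 ± 2.29 FPKM in OB for Gabre (log2 fold 4.52) and 24.6 ± 39.2 FPKM in FB and 0.743 ± 4.25 FPKM in OB for Gabrq (3.88). Both were higher in P7.FB.1 (84.4 and 53.7 FPKM) than in P7.FB.2 (13.5 and 10.8 FPKM). Gabrg1 (2.33) and Gabrb1 (1.88; 1.00 in pairs) were higher in FB as well. Gabrd (delta), a subunit of receptors outside synapses, averaged 0.0923 ± 0.527 FPKM in FB and 30.3 ± 61.2 FPKM in OB (-4.84), and Gabra4 12.7 ± 28.9 FPKM in FB and 52.3 ± 67.5 FPKM in OB (-1.96). In P7.OB.1 Gabrd was at 0.499 FPKM and Gabra4 at 40.0 FPKM.

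Of 22 glutamate receptor subunits, 7 were called higher in FB and 4 higher in OB (5 and 4 in pairs). The list median was 0.09 in all cells, -0.65 in pairs and -0.45 without plate TH02_18.20.16, so it gives no direction. The kainate subunit Grik1 (2.98) and the NMDA subunit Grin3a (2.69) were higher in FB. The AMPA subunit Gria1 averaged 24.7 ± 44.2 FPKM in FB and 114 ± 110 FPKM in OB (-2.16), the presynaptic receptor Grm2 had a log2 fold of -3.19 and the NMDA subunit Grin2c -3.19. Potassium channel genes also split, with 9 of 34 called higher in FB and 7 higher in OB (4 and 5 in pairs). Kcnn3 (1.96), a calcium-activated channel, and the beta subunit Kcnab1 (2.43) were higher in FB, and Kcnc2 (-3.62), a channel of fast-firing neurons, and Kcnj3 (-2.15), a G protein gated channel, were lower. Of 32 calcium, sodium and Hcn channel genes, 7 were called higher in FB and 2 higher in OB, shares near those of all genes. The sodium channel subunits Scn9a (3.08) and Scn3b (1.95) and the calcium channel subunit Cacna2d3 (2.499) were higher in FB, and Cacnb2 (-1.70) was lower. Cacng3 (3.27), in this list by its name as a calcium channel gamma subunit, was higher in FB as well.

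Synaptic vesicle genes gave few calls toward FB. Among all genes, 17.1% were called higher in FB and 6.69% higher in OB. Of 27 synaptic vesicle and release genes, 2 were called higher in FB and 3 higher in OB (median 0.07; -0.72 in pairs). Synpr, a synaptophysin-like vesicle protein, ran from 0 through 0.901 to 399.8 FPKM in FB cells, and from 0 through 264 to 1872 FPKM in OB cells, and was found in 49.4% of FB and 97.1% of OB cells (log2 fold -3.79; -3.94 in pairs). Its means in the OB clusters were close, at 431, 396 and 389 FPKM. Complexin 1 (Cplx1) averaged 24.4 ± 52.7 FPKM in FB and 163 ± 222 FPKM in OB (-2.69; -5.89 in pairs), while the vesicle protein Sv2b was higher in FB (3.22). Of 15 dense-core vesicle genes, 4 were called higher in FB and 2 higher in OB (1 and 2 in pairs). The granins Chga (2.09; 0.81 in pairs) and Scg2 (1.22; 0.73 in pairs), the granin-like precursor Vgf (1.73; 0.79 in pairs) and Pcsk1n, an inhibitor of prohormone convertase (1.53; 1.79 in pairs), were higher in FB. The convertases themselves, Pcsk1 (-1.68) and Pcsk2 (-1.57), were lower. None of 33 nuclear genes of oxidative phosphorylation was called in either direction, and their median was 0.00 (-0.56 in pairs).

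**Figure D4:**
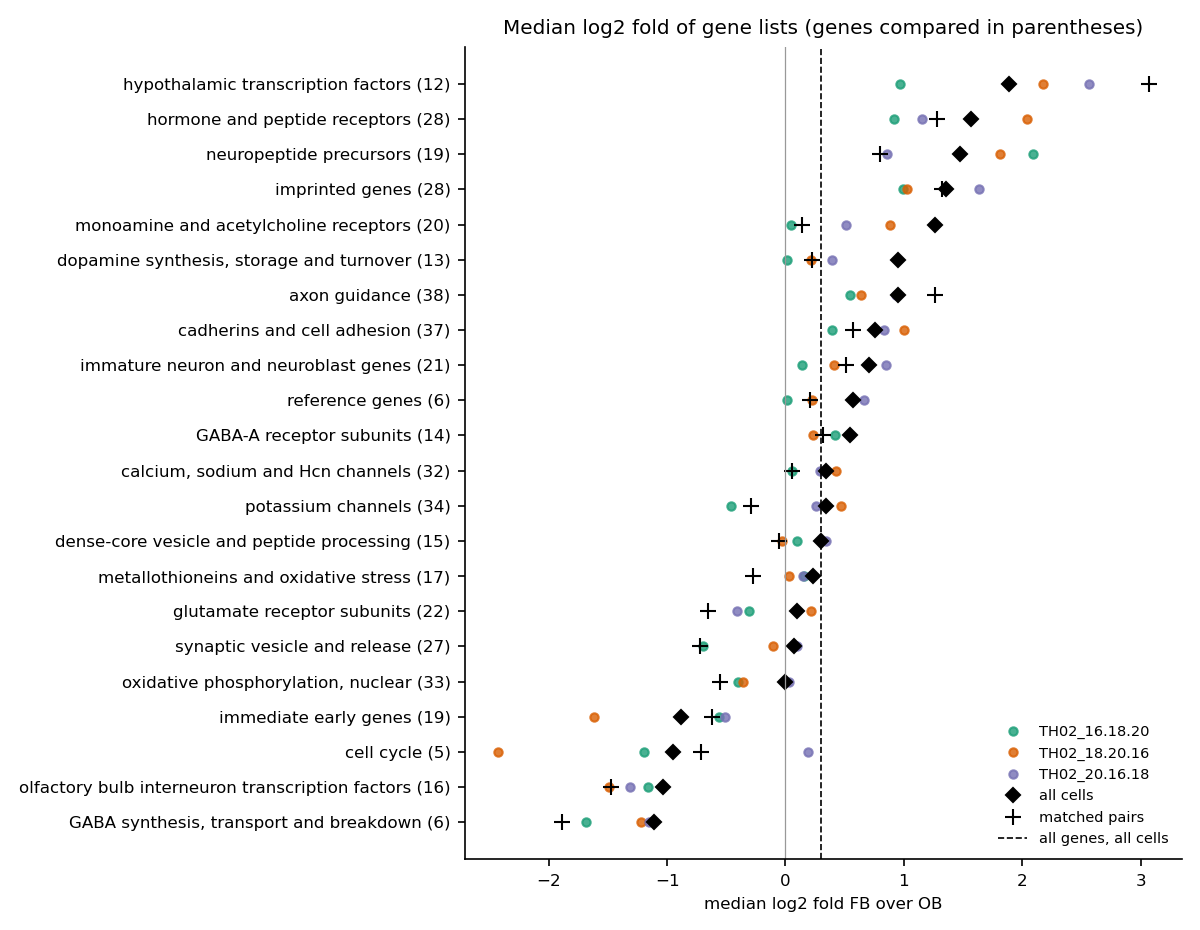
Median log2 fold, FB over OB, of gene lists in all cells (diamonds), on each plate (coloured points) and in 25 matched pairs (crosses), with the median of all 12174 compared genes as a dashed line at 0.30. That line holds for all cells. Over the same genes the median was -0.047 on plate TH02_16.18.20, 0.20 on TH02_18.20.16, 0.31 on TH02_20.16.18 and 0 in the pairs. Drawn are lists with 5 or more compared genes, without the midbrain and cell type marker lists; among these, hypothalamic transcription factors (1.88) lie highest and GABA genes (-1.11) lowest in all cells.

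Imprinted genes, expressed from 1 parental allele in at least some tissues, were mostly higher in FB. Of 28 compared, 19 were called higher in FB and 1 higher in OB (16 and 1 in pairs), with a median of 1.35 (1.32 in pairs). Ndn (ENSMUSG00000033585.4; chromosome 7, 62346569 to 62350262, plus strand), which encodes necdin, ran from 131 through a median of 682 to 2748 FPKM in FB cells, and from 0 through 129 to 1905 FPKM in OB cells. Its mean was 879.6 ± 615 FPKM in FB and 207 ± 270 FPKM in OB (log2 fold 2.08; 1.79 in pairs). Nnat, a membrane proteolipid of the developing brain, averaged 1137 ± 1389 FPKM in FB and 258 ± 439 FPKM in OB (2.13), and Peg3, a zinc finger protein, 178 ± 106 FPKM in FB and 68.2 ± 63.9 FPKM in OB (1.37). These genes were found in nearly all cells of both regions, with overlapping ranges. Other members were found mainly in FB cells. Mest, an enzyme-like protein, was found in 93.8% of FB and 26.5% of OB cells (3.21), and Dlk1, a Notch ligand homologue, in 58.02% of FB and 2.94% of OB cells (3.77). The zinc finger gene Zdbf2 was found in 80.2% of FB and 1.47% of OB cells (2.68), and Magel2, a MAGE family gene, in 60.5% of FB and 10.3% of OB cells (2.11). Asb4 and Calcr, described above, also belong to this list and to the same imprinted region of chromosome 6. Snurf had a log2 fold of -1.67 and shares transcripts with Snrpn, so its value is uncertain.

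Genes of axon guidance and adhesion were more often called higher in FB. In axon guidance 18 of 38 were called higher in FB and 3 higher in OB (16 and 2 in pairs; median 0.95, 1.26 in pairs). Receptors for semaphorins, Nrp1 (2.52) and Nrp2 (2.69), the netrin receptor Unc5d (3.28) and the secreted Robo ligand Slit2 (3.08) were higher in FB. Unc5c had a log2 fold of 4.28, but 1 FB cell held 94.2% of its total and the value was 1.06 without the highest cell of each region. Sema3e, a secreted semaphorin, averaged 0.0540 ± 0.305 FPKM in FB and 19.7 ± 30.6 FPKM in OB (-4.30), and lay in P7.OB.2 and P7.OB.3 (29.8 and 23.5 FPKM) rather than P7.OB.1 (0.170 FPKM). Of 37 cadherins and adhesion genes, 15 were called higher in FB and 1 higher in OB (13 and 1 in pairs), among them the teneurins Tenm2 (2.99) and Tenm1 (2.41), Cdh11 (2.91) and Pcdh19 (2.68) in FB and Cdh12 (-2.17) in OB.

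Genes of young neurons were called in both directions. Of 21 compared, 8 were called higher in FB and 4 higher in OB (4 and 4 in pairs; median 0.71, 0.52 in pairs). Stmn2, a microtubule regulator, was higher in FB at 526 ± 465 FPKM in FB and 88.3 ± 189 FPKM in OB (log2 fold 2.56; 1.62 in pairs). The RNA-binding protein gene Elavl4 had 1.98 (1.39 in pairs). Gap43, a growth cone protein, had 2.15 and Tubb3, a neuronal tubulin, 1.62, but in pairs both were under 2-fold (0.84 and 0.33). Dcx, which binds microtubules in migrating neurons, ran from 0 through 6.15 to 88.4 FPKM in FB cells, and from 0 through 48.1 to 725 FPKM in OB cells (log2 fold -2.79; -3.01 in pairs), and was lower in FB. Its mean was 193 FPKM in P7.OB.1, 56.996 FPKM in P7.OB.2 and 30.04 FPKM in P7.OB.3, while Th ran the other way, at 149, 1281 and 1425 FPKM. Cd24a, a surface glycoprotein of neuroblasts, had a log2 fold of -3.16 and did not follow Dcx, being highest in P7.OB.3 (387 FPKM).

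Of 19 immediate early genes, 1, Egr2, was called higher in FB and 7 higher in OB (1 and 6 in pairs), with a median of -0.88 (-0.62 in pairs). Nr4a1, an orphan nuclear receptor induced by activity, ran from 0 through 0 to 68.2 FPKM in FB cells, and from 0 through 3.17 to 546 FPKM in OB cells (log2 fold -2.90). Nr4a2, of the same family and also a factor of midbrain dopaminergic neurons, averaged 2.38 ± 13.1 FPKM in FB and 20.0 ± 43.4 FPKM in OB (-2.63). Arc (-2.26), Btg2 (-1.63) and Nr4a3 (-1.54) were lower in FB too. Fos was found in 61.7% of FB and 80.9% of OB cells and was not called (-0.55).

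**Figure D5:**
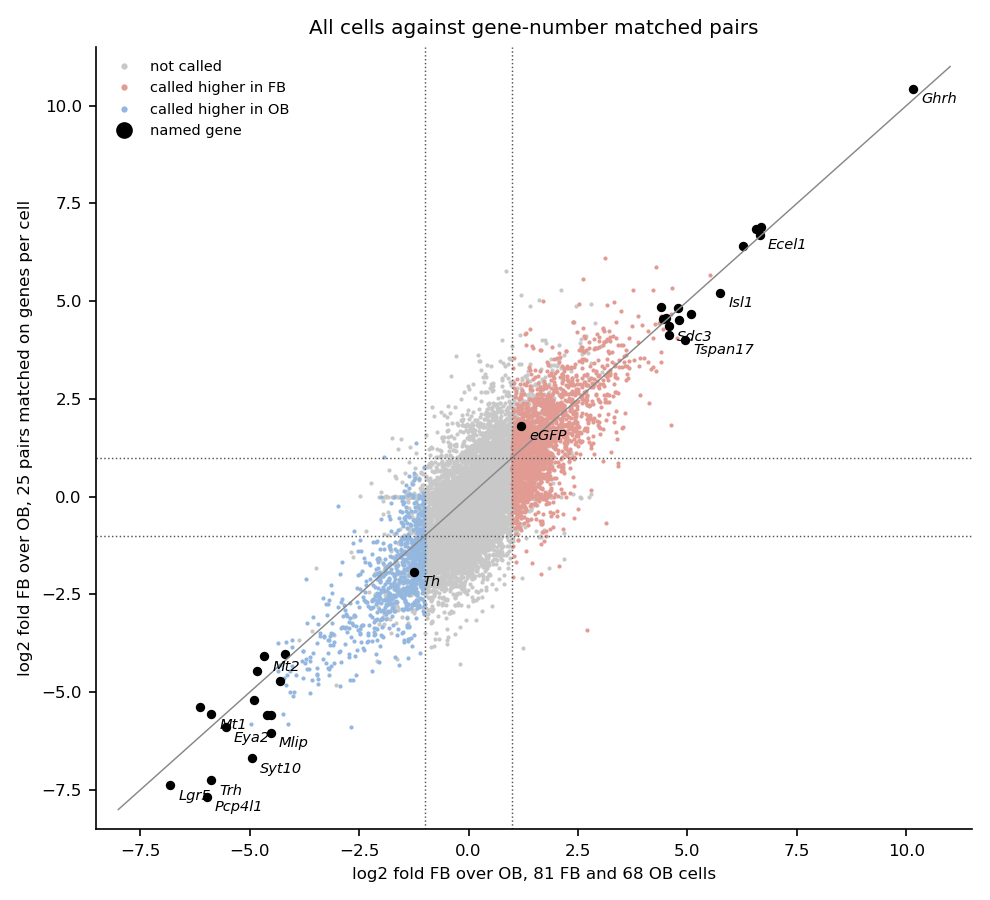
Log2 fold, FB over OB, of 12174 genes in all cells (horizontal) and in 25 pairs of cells matched on genes per cell (vertical); dotted lines mark 2-fold, and the 32 genes named by rule are black. Ghrh (10.14 and 10.43) and Lgr5 (-6.82 and -7.38) keep their size, and OB genes such as Pcp4l1 and Syt10 lie farther from 0 in the pairs.

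Markers of other cell types were low in most cells. Summed over 10 astrocyte markers, the median per cell was 43.6 FPKM in FB (0 to 447) and 0.512 FPKM in OB (0 to 479), most of the FB sum being Aldoc, and 13 of 81 FB cells and 4 of 68 OB cells had at least 3 of the markers. At least 3 oligodendrocyte markers were found in 10 FB cells and 0 OB cells, and at least 3 microglia, endothelial, ependymal or mitral cell markers in none. At least 3 markers of olfactory ensheathing glia were found in 2 FB and 2 OB cells. The part of such RNA in the results was not tested. Of the reference genes, Gapdh, a glycolytic enzyme, was lower in FB on each plate without a call (-0.52) and the tubulin gene Tubb5 was called higher in FB (1.77). Exact zeros made up 1.03% of FB and 0.735% of OB values of the 6 reference genes, so a gene listed at 0 in a cell may still be expressed there. The means of these genes are high, with sums of 3208 FPKM in FB and 1993 FPKM in OB. They do not give the share of such zeros among lower genes.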

How the data were processed

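Per the submitters' processing notes, the authors aligned reads to the mouse genome build mm10 with HISAT2 and made the deposited FPKM values with Cuffnorm; versions, annotation release and how each cell was scaled are not given in the sources used here. Sums of FPKM per cell differed between library plates (medians of 191477, 517940 and 276015 in FB cells and 199528, 545503 and 241292 in OB cells), so alternatives rescale cells and weight plates equally. The table has 28952 features, of which 28637 were given symbols by Ensembl gene identifier, and 1 is the eGFP transgene. No column was left without a sample and no columns were identical. Coordinates come from GENCODE M21 (GRCm38, the assembly of mm10) and promoters from RefSeq (GRCm38.p6), matched by symbol.

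Folds are log2((FB mean + 1)/(OB mean + 1)) of mean FPKM over cells, a scale on which differences of low genes come out too small. Genes with a mean of at least 1 FPKM in either region were compared, and a gene was found in a cell at 1 FPKM or more. The 95% intervals of shares are exact (Clopper-Pearson) and take in no error beyond counting. FPKM is not a count, so no count model was used, and with 1 pool per region no test was possible. Genes named by rule had a mean of at least 20 FPKM in the higher region, were found there in 50% of cells or more and kept their direction on all 3 plates, in the mean of log2(FPKM + 1) and in the matched pairs; the 15 highest and 15 lowest were taken, with Th and eGFP. List genes named in the text had 1 direction on all plates and a mean of at least 5 FPKM in the higher region, and the few others named were chosen after their values were seen. A few list genes are counted in their lists but not reported by name here. The cells, the 32 gene lists and the rules were chosen with earlier results of these data known. No doublet caller was run, since wells were filled by sorting. The folds and calls were tested on simulated cells that had no plate scaling and no difference in gene number between regions. The pairing rule was checked on the labels, and the other steps were not tested on simulated data. Python 3.11.15, numpy 2.4.6, pandas 2.3.3, scipy 1.17.1 and matplotlib 3.10.9 were used.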

Additional observations from a re-analysis of the deposited data

How the results depend on the processing

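The precision of these values is limited by 1 pool per region, by library plates with unequal FPKM totals and by an unknown depth. The relative fragments are an estimate of depth. The number of genes per cell did not follow them, with a rank correlation of -0.0038 across FB cells and 0.12 across OB cells. Pairs matched on gene number are thus not matched on depth. Low folds depend on the pseudocount, and genes found in few cells depend on single cells. No paired analysis was possible because the replicate numbers only name cells, and no test was made.

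Across 24 alternatives, 34 of the 3288 values of single genes changed sign, 23 of them from a fold of 2 or more and 11 from a smaller one (Fos, Gapdh, Mt3, Slc32a1 and Slc6a3). Of the 32 genes named by rule, 4 values changed sign. Of the 504 list medians 54 changed sign, 4 from a fold of 2 or more and 50 from a smaller one. The 50 belong to 9 lists, mainly glutamate receptor subunits (11 values, down to -0.84), synaptic vesicle genes (10, to -0.72), metallothioneins and oxidative stress (9, to -0.35) and oxidative phosphorylation (9, up to 0.57). Potassium channels (4, to -0.51), dense-core vesicle genes (4, to -0.21), axon guidance (-0.11), adhesion genes (-0.11) and calcium, sodium and Hcn channels (-0.065) follow. Counts of genes called are given as higher in FB and higher in OB. With a pseudocount of 10 they were 484 and 183, with a minimum mean of 10 FPKM 1022 and 381, in pairs matched on gene number 1266 and 1482, and with the 2000 highest genes of each cell kept 950 and 1568. With the mean of log2(FPKM + 1), 265 were higher in OB. Plate TH02_18.20.16 alone gave 4008 and 2317, leaving out plate TH02_16.18.20 gave 3124 higher in FB, and leaving out cluster P7.FB.2 gave 1540 higher in OB.

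The median of the hypothalamic transcription factors was 4.33 and 0.49 with pseudocounts of 0.1 and 10, 1.04 with no minimum mean and 4.36 with a minimum of 10 FPKM. It was 0.49 in the mean of log2(FPKM + 1), 3.63 in pairs matched on gene number, where the minimum was applied anew, 2.71 without P7.OB.1 and 3.21 without P7.FB.2. The median of the olfactory bulb factors was -0.54 with a pseudocount of 10, -2.20 with a minimum of 10 FPKM, -0.79 in the mean of log2(FPKM + 1) and -1.75 in pairs matched on gene number. It was -1.24 in cells with 3000 to 5000 genes, -1.88 with 2000 genes kept, -1.31 without plate TH02_18.20.16, -1.48 on that plate alone, -2.40 without P7.FB.2 and -1.23 without P7.OB.2. The GABA median was -1.43 with a minimum of 10 FPKM, -1.46 in the mean of log2(FPKM + 1), -1.47 with cells rescaled and -1.89 in pairs matched on gene number. It was -1.74 in cells with 3000 to 5000 genes, -1.63 with 2000 genes kept, -1.43 without plate TH02_18.20.16, -1.62 in pairs matched on relative fragments and -1.69 without P7.FB.2. The neuropeptide median was 0.27 in the mean of log2(FPKM + 1). The median of the monoamine and acetylcholine receptors was -0.14 with a minimum of 10 FPKM, -0.12 in cells with 3000 to 5000 genes and -1.37 without P7.FB.2.

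Taking columns by name, without the exchange, mixes cells of both regions on 2 plates. It left 501 and 126 genes called, with medians of 0.069 for GABA genes, 1.13 for hypothalamic and -0.0018 for olfactory bulb factors. It turned the log2 folds of Eya2 (0.17), Mlip (0.053), Cacnb2 (0.42), Cartpt (-0.88), Cd24a (0.10), Gad2 (0.16), Kcnn3 (-0.017), Maoa (-0.20), Meis2 (0.18), Sall1 (0.074), Chrm2 (0.13), Gfra1 (-0.041) and Htr3a (0.32). The log2 fold of eGFP was -0.68 in cells with 3000 to 5000 genes and -0.072 without plate TH02_18.20.16. Sst was at -3.40 in pairs matched on gene number, -5.67 in cells with 3000 to 5000 genes and -5.79 without P7.FB.2, Crh at 0.35 without P7.OB.1, Chrm2 at 0.17 without P7.OB.2, Chrna3 at -0.23 without P7.FB.2, Htr4 at -0.11 with 2000 genes kept and Ghr at -0.17 without P7.FB.1. The pairs matched on relative fragments and the versions without P7.FB.1, P7.FB.2 or P7.OB.2 were chosen after seeing the data. Except where the columns by name mix the regions, the cause of these moves was not tested.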

Other observations

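Receptors for monoamines and acetylcholine also differed by subtype, with 7 of 20 compared called higher in FB and 4 higher in OB (4 and 3 in pairs). Htr4, a serotonin receptor, averaged 9.29 ± 13.2 FPKM in FB and 0.964 ± 4.64 FPKM in OB, and was found in 56.8% of FB and 5.88% of OB cells (log2 fold 2.39). The nicotinic subunits Chrna3 (2.69) and Chrna4 (3.41; 0.78 in pairs) were higher in FB. The muscarinic receptor Chrm2 averaged 3.51 ± 8.64 FPKM in FB and 18.3 ± 31.7 FPKM in OB (-2.10; -3.67 in pairs), and Htr3a, an ionotropic serotonin receptor, was found in no FB cell and in 8.82% of OB cells (-2.89).

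Of 16 genes of midbrain dopaminergic identity, 8 were compared, and 2 were called higher in FB and 1, Nr4a2, higher in OB. Slc10a4, a vesicle protein of cholinergic and monoaminergic neurons, averaged 76.5 ± 189 FPKM in FB and 3.996 ± 25.96 FPKM in OB (log2 fold 3.96), and was found in 56.8% of FB and 5.88% of OB cells. Gfra1, a receptor for the growth factor GDNF, averaged 34.8 ± 69.2 FPKM in FB and 2.43 ± 12.4 FPKM in OB (3.38). En1, Foxa1, Foxa2, Lmx1b, Pitx3 and Aldh1a1 stayed under 1 FPKM in both regions. Of 15 cell cycle genes 5 reached 1 FPKM, and Mcm2 was called higher in FB and Mcm6 higher in OB.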
